A study of Fukomys damarensis with 47 samples.

Results

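ADAM8 is a membrane-anchored metalloprotease with a disintegrin domain. Its transcript was measured as 1 of 33562 genes in RNA-Seq of bone marrow cultures from female Damaraland mole-rats (Fukomys damarensis). The gene, Ensembl identifier ENSFDAG00000003642 through the study's gene list, was chosen by its measured counts, which earlier analysis of these same animals had found higher in queens than in nonbreeders. The values that separate queens from nonbreeders are therefore given as a description, with no test. Its genome position is not given here, because no annotation of the assembly used for counting was at hand.

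The 16 animals were adult females between 1003 and 1232 days old from 8 natal colonies. Of these, 5 were queens, that is, females paired with a male in a new colony. Another 7 were helpers, which stayed in the natal colony without breeding, and 4 were solitaires, which were housed alone without breeding. Helpers and solitaires together are the 11 nonbreeders. Marrow cells from pooled long bones (26 libraries, 16 animals) or from pooled lumbar vertebrae (LV, 21 libraries, 14 animals) were grown under conditions that enrich bone marrow stromal cells (bMSCs), and were then given 10 nM estradiol (E2) or vehicle for 24 hours. All cultures received the same base medium, with fetal bovine serum and basic fibroblast growth factor. The animal is the replicate throughout, and each combination of animal, bone type and treatment has 1 library. Depth ran from 5329563 to 16327339 counts on genes per library. No library repeated another: in 86 within-group pairs, a chi-squared test of the counts gave 26.3 or more for each degree of freedom.

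ADAM8, also known as CD156, is made mainly by leukocytes such as neutrophils, monocytes and macrophages. Its metalloprotease domain removes its own inhibitory prodomain and then cuts other proteins from the cell surface, and its disintegrin domain binds integrins. In bone it is known to promote the fusion of osteoclast precursors into osteoclasts, the cells that resorb bone.

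ADAM8 was a low transcript in most cultures and a moderate one in a few. CPM, the count divided by library size after TMM scaling, had a median of 2.59 over the 47 libraries and a maximum of 54.4. The raw count had a median of 24.0, a minimum of 0 in 1 library and a maximum of 473. The level was under 1 CPM in 12 libraries, 3 of them from queens. It reached 20 CPM or more in 5 libraries, and these came from 3 animals, the queens NOF009, LAF007 and WAF014. The highest of the 32 nonbreeder libraries stood at 12.4 CPM, and 5 of the 15 queen libraries lay above it. For a library with no ADAM8 count, 3 counts set the floor. The vehicle culture of the long bones of helper WAF011 had 0 of 12343795 counts, which allows up to 0.266 CPM. Such floors, and the intervals given below for single pairs of libraries, cover counting error only.

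**Figure D1:**
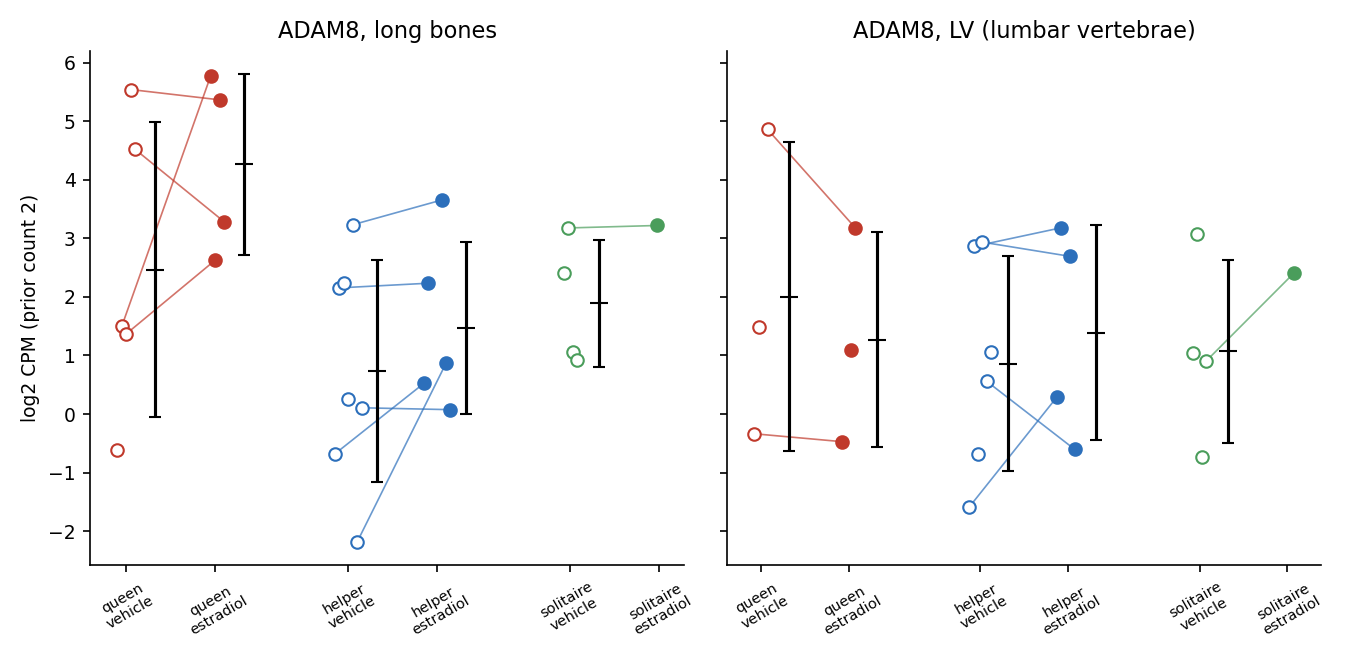
ADAM8 in each of the 47 libraries as log2 CPM with a prior count of 2, by bone type, status and treatment. Open points are vehicle and filled points estradiol cultures, lines join the cultures of 1 animal, and bars give mean ± SD of groups with more than 1 library. Queen libraries span the widest range in vehicle cultures of both bone types, and the lines run in both directions.

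In the long bones of queens the level differed widely between animals. Vehicle cultures stood at 46.3 CPM in NOF009, 22.7 in WAF014, 2.61 in LAF007, 2.36 in MAF006 and 0.431 in DVF007. Estradiol cultures stood at 54.4 CPM in LAF007, 41.0 in NOF009, 9.53 in WAF014 and 5.95 in MAF006. Queen DVF007, with 4 counts, therefore lay among the lowest nonbreeders, while NOF009 was above every nonbreeder library under both treatments. In the 11 nonbreeders, vehicle cultures of the long bones ran from 0 to 9.18 CPM with a median of 1.88, and the 6 estradiol cultures ran from 0.833 to 12.4 CPM with a median of 3.04. The groups overlapped under both treatments.

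The LV held 1 queen with a high level. Vehicle cultures of the LV stood at 28.8 CPM in WAF014, 2.59 in LAF007 and 0.571 in DVF007, and estradiol cultures at 8.84 in WAF014, 1.92 in MAF006 and 0.501 in DVF007. NOF009, the queen with the highest vehicle culture in the long bones, has no LV library. The 10 vehicle cultures of nonbreeders ran from 0.113 to 8.19 CPM with a median of 1.75, and the 5 estradiol cultures from 0.438 to 8.85 CPM with a median of 5.08. Queens other than WAF014 lay within the range of the nonbreeders.

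Ordered by mean log2 CPM, the 10 groups with more than 1 library began with the estradiol cultures of queen long bones, at 4.26 ± 1.54 (SD, n = 4). Vehicle cultures of queen long bones followed at 2.46 ± 2.52 (SD, n = 5), and those of the LV of queens at 2.00 ± 2.64 (SD, n = 3). Solitaires had 1.89 ± 1.09 (SD, n = 4) in vehicle cultures of the long bones and 1.07 ± 1.56 (SD, n = 4) in those of the LV. Helpers under estradiol had 1.47 ± 1.46 (SD, n = 5) in long bones and 1.39 ± 1.83 (SD, n = 4) in the LV, and estradiol cultures of queen LV had 1.27 ± 1.83 (SD, n = 3). Helpers under vehicle were lowest, at 0.86 ± 1.83 (SD, n = 6) in the LV and 0.73 ± 1.90 (SD, n = 7) in the long bones. The first and second groups lay 1.80 apart, less than the SD of the second. They do not hold the same queens, because DVF007, the lowest under vehicle, has no estradiol culture of the long bones. Over the 4 queens with both, estradiol minus vehicle had a mean of 1.03 ± 2.39 (SD, n = 4), with 2 higher and 2 lower. Every other pair of neighbours in this order lay within 0.46, below the SD of either group.

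Queens were next set beside the nonbreeder of the same natal colony in cultures of the same treatment. In vehicle cultures of the long bones, queen WAF014 had 22.7 CPM and helper WAF011 had no count, so that the queen was at least 85.4-fold higher at the floor of 3 counts in the helper's library. Queen NOF009 had 46.3 CPM against 9.18 in helper NOF007, a ratio of 5.05, and queen LAF007 had 2.61 CPM against 0.977 in helper LAF008, a ratio of 2.67. Queen MAF006 and solitaire MAF003 had 2.36 and 1.88 CPM, a ratio of 1.26, and queen DVF007 and helper DVF008 had 4 and 5 counts, or 0.431 and 0.405 CPM. The log2 difference over these 5 colonies had a mean of 2.12 ± 2.71 (SD, n = 5), so its size was very unequal. The value of WA, 6.70, depends on the prior count of 2, because the helper had no count. The other colonies ran from 0.06 in DV to 2.31 in NO. Under estradiol both animals of a colony were cultured in NO, with a ratio of 3.31, and in WA, with a ratio of 5.94. The LV had 3 such pairs under vehicle, with ratios of 23.0 in WA and 6.45 in LA, and with 5 against 1 counts in DV. Under estradiol the ratio in the LV was 20.2 in WA and 0.498 in DV. The estradiol cultures of LAF007 in long bones and of MAF006 in both bone types have no culture of the same treatment from a nonbreeder of their colony.

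**Figure D2:**
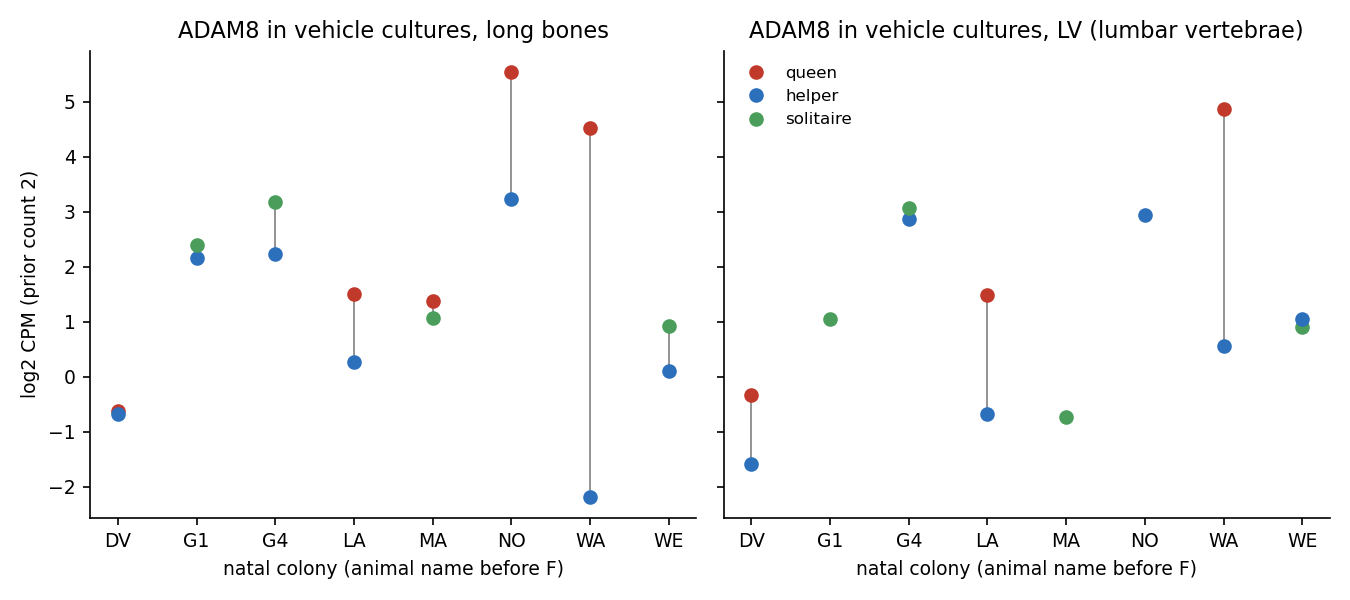
Log2 CPM of ADAM8 in the vehicle culture of each animal (vertical axis, prior count 2) by natal colony, for long bones and LV, with points coloured by status. The queen of WA lies far above the helper of her colony in both bone types, while both animals of colony DV are low.

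The fitted difference between queens and nonbreeders, with counts summed per animal and natal colony as a block, was 2.46 on the log2 scale (SE 0.68) in long bones and 2.58 (SE 0.77) in the LV. Both are descriptions of the contrast that singled the gene out. The sums mix treatments that not every animal has, and in vehicle libraries alone the long bone value was 2.10 (SE 0.86). The LV value rested on few colonies and on the block. It was 0.93 (SE 0.87) without natal colony in the model, 3.67 (SE 0.54) in vehicle libraries alone, 1.42 without WAF014 or without WAF011, and 3.67 without DVF007 or without DVF008.

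Markers of other cells moved with status as well, and their part in the ADAM8 level was not tested. The list of 15 myeloid markers (genes of monocytes, macrophages and granulocytes, such as LAPTM5, C3AR1 and CLEC4E) was higher in queens for 15 of 15 genes in both bone types. Its median log2 difference was 1.60 in long bones and 1.31 in the LV, beside medians of 0.02 and 0.01 over all 11047 genes tested. The summed level of the list per animal ran from 260 to 3014 CPM in queen long bones and from 109 to 1089 CPM in those of nonbreeders, so the groups overlapped. In the LV it ran from 52.0 to 990 CPM and from 59.8 to 904 CPM. Of its members, TLR8, CD180, IL10RA, PTAFR, GPR65 and PARVG had a count of 0 in between 1 and 5 of the 47 libraries, and the other members were counted in every library. In a bulk culture, more cells of a type and more RNA per cell cannot be told apart. The 12 osteoblast and stroma genes, which include COL1A1, the main chain of type I collagen, had a median of -0.41 in long bones with 0 of 12 above zero, and of -0.21 in the LV with 5 of 12 above zero. The summed stromal level ran from 331 to 7894 CPM in queens and from 1575 to 5006 CPM in nonbreeders of the long bones.

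Only 1116 of the 11047 genes tested have a symbol here, so other metalloproteases may stand among the unnamed genes. Those set beside ADAM8 were ADAM9, MMP2 and MMP11. Their log2 differences between queens and nonbreeders were -0.18, -0.43 and 0.56 in long bones and -0.11, 0.06 and -0.48 in the LV. The list of 6 that adds the non-protease relatives ADAMTSL3 and ADAMTSL5 and the membrane inhibitor RECK had a median of -0.42 in long bones and -0.29 in the LV, with 1 of 6 above zero in each. The list called resorption genes here held the cysteine cathepsins CTSK, CTSS, CTSZ and CTSV and the proton pump subunits ATP6V0A1 and ATP6V1D. Only CTSK among them served as an osteoclast marker, so the list is not a measure of resorption. Of these 6 genes, 6 of 6 were above zero in long bones and 4 of 6 in the LV. Their medians were 0.82 and 0.35. Cathepsin S, a protease of antigen-presenting cells, differed most, by 2.93 (SE 0.75) and 2.40 (SE 0.55), and CTSS also stands on the myeloid list. The difference between ADAM8 and each list was not tested.

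For the remaining marker lists the medians between queens and nonbreeders lay closer to zero than that of the myeloid list. The endothelial list (PTPRB, ICAM2, CLEC1A, ANGPT2 and RHOJ) had medians of -0.57 in long bones and -0.12 in the LV, and the lymphoid list of IL7R, GRAP2 and SLAMF7 had 0.65 and 0.80. The lymphoid gene CD27 fell below the filter and had a count of 0 in 23 libraries. The 8 cell cycle genes had medians of 0.14 and 0.37. CTSK, cathepsin K, the collagenase of osteoclasts and the only osteoclast marker with an identifier here, differed by 0.42 (SE 0.26) and 0.09 (SE 0.27).

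The next comparison asks whether 24 hours of estradiol changed ADAM8 in cultures of the same animal. In the long bones, no change passed the test. The fitted log2 difference between estradiol and vehicle was 0.78 (SE 0.52, 95% interval -0.34 to 1.90, 10 animals), with an unadjusted p of 0.158 and an adjusted p of 1.00 in edgeR's quasi-likelihood test. No gene of the 11047 tested (0%) passed an FDR of 10% in this comparison, and 129 (1.17%) had an unadjusted p under 0.05. By an exact two-sided permutation test that flips the sign of each animal's difference, p was 0.121. With LAF007 left out the fitted difference fell to 0.38, and with WAF014 left out it rose to 1.07.

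The fitted mean hid opposite changes in single queens. In LAF007 the level went from 26 counts (2.61 CPM) under vehicle to 473 counts (54.4 CPM) under estradiol, a ratio of 20.8 (95% exact counting interval 14.05 to 32.2). In WAF014 it went from 274 counts (22.7 CPM) to 119 counts (9.53 CPM), a ratio of 0.42 (interval 0.336 to 0.523). MAF006 went from 17 to 37 counts, a ratio of 2.52 (interval 1.38 to 4.77), and NOF009 from 346 to 352 counts, a ratio of 0.885 (interval 0.761 to 1.03). Beyond counting error LAF007 and MAF006 were thus higher under estradiol and WAF014 lower. The intervals compare 2 libraries each, not the conditions.

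Among nonbreeders, most pairs of long bone cultures held similar levels. The 6 differences on the log2 scale ran from -0.03 to 3.05 with a median of 0.25, and 5 of 6 were above zero. The largest came from helper WAF011, with 0 counts under vehicle and 21 under estradiol, at least 6.04-fold higher when set against the floor of 3 counts in the vehicle library. DVF008 went from 5 to 10 counts, a ratio of 3.01 (interval 0.937 to 11.2). G1F022, G4F020, NOF007 and WEF002 had ratios of 1.06, 1.03, 1.35 and 0.972. Their mean difference of 0.79 ± 1.20 (SD, n = 6) gave p = 0.0625 in the exact permutation test, where 0.0313 is the smallest value that 6 pairs allow. Without TMM factors, the mean was 0.77 and the exact permutation p was 0.0313. That drop came from WEF002, with 6 counts under estradiol and 5 under vehicle. Its log2 levels were 0.075 and 0.107 with TMM factors and 0.047 and 0.042 without them, so its sign changed. These exact p-values are not adjusted.

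In the LV the mean was close to zero. The fitted log2 difference was -0.03 (SE 0.51, 95% interval -1.19 to 1.12, 7 animals), with an edgeR adjusted p of 1.00, and 3 of 7 animals were higher under estradiol. No gene of 11047 (0%) passed an FDR of 10%, and 55 (0.498%) had an unadjusted p under 0.05. WAF014 was again lower under estradiol, from 472 counts (28.8 CPM) to 119 counts (8.84 CPM), a ratio of 0.307 (interval 0.249 to 0.376). WEF001, a solitaire, went from 9 to 52 counts, a ratio of 3.07 (interval 1.501 to 7.10), and helper DVF008 from 1 to 12 counts, a ratio of 8.92 (interval 1.32 to 381). Helper WAF011 went from 15 to 6 counts, a ratio of 0.351 (interval 0.111 to 0.956), opposite to its long bones. DVF007, G4F019 and NOF007 had ratios of 0.876, 1.26 and 0.84, with intervals that all include 1. Within nonbreeders alone the fitted difference was 0.42 (SE 0.55), the other sign.

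The response of queens was not distinguishable from that of nonbreeders in the long bones. The interaction was 0.11 on the log2 scale (SE 1.22, 95% interval -2.55 to 2.76, edgeR adjusted p = 0.987), an interval that holds a difference of several fold either way. No gene of 11047 (0%) passed an FDR of 10%, and 27 (0.244%) had an unadjusted p under 0.05. The value was -0.85 without LAF007 and 1.00 without WAF014. No list held a gene past an FDR of 10% under estradiol in either bone type. The median log2 difference of the myeloid list was 0.22 in long bones and 0.07 in the LV, that of the resorption list -0.03 and -0.06, and that of the list with ADAM9, MMP2 and MMP11 0.02 and -0.04. LAPTM5, a lysosomal membrane protein of leukocytes, had the smallest unadjusted p of its list in the LV, with a difference of 0.71 (SE 0.17, edgeR unadjusted p = 0.00257, adjusted p = 1.00).

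In the pairs of cultures with the largest differences, ADAM8 and COL1A1, a gene of osteoblasts and stroma, differed in the same direction. In LAF007 long bones, COL1A1 stood at 340 CPM under vehicle and 1430 under estradiol, and in WAF014 LV at 1274 and 407 CPM, so that both genes were higher under estradiol in the first pair and lower in the second. Helper WAF011 had 340 and 933 CPM of COL1A1 in the long bones. The signs of the 2 genes agreed in 6 of 10 animals in long bones and in 5 of 7 in the LV. Those that went opposite ways in long bones were DVF008 (log2 difference 1.20 for ADAM8 and -0.27 for COL1A1), NOF007 (0.42 and -1.07), G1F022 and G4F020, and in the LV G4F019 and NOF007. Over the animals, the changes had r = 0.82 and rho = 0.68 in long bones (n = 10) and r = 0.90 and rho = 0.89 in the LV (n = 7). Without the 2 animals farthest from the median change of COL1A1, r was 0.75 and 0.77. Among the 6 nonbreeders of the long bones r was 0.79, and it was -0.17 without WEF002 and WAF011, so there it rests on those animals. This relation was looked for after its values were seen, and is therefore given with no test. Both changes come from the same libraries, and the part of COL1A1, or of the stromal cells that express it, in the change of ADAM8 was not tested.

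**Figure D3:**
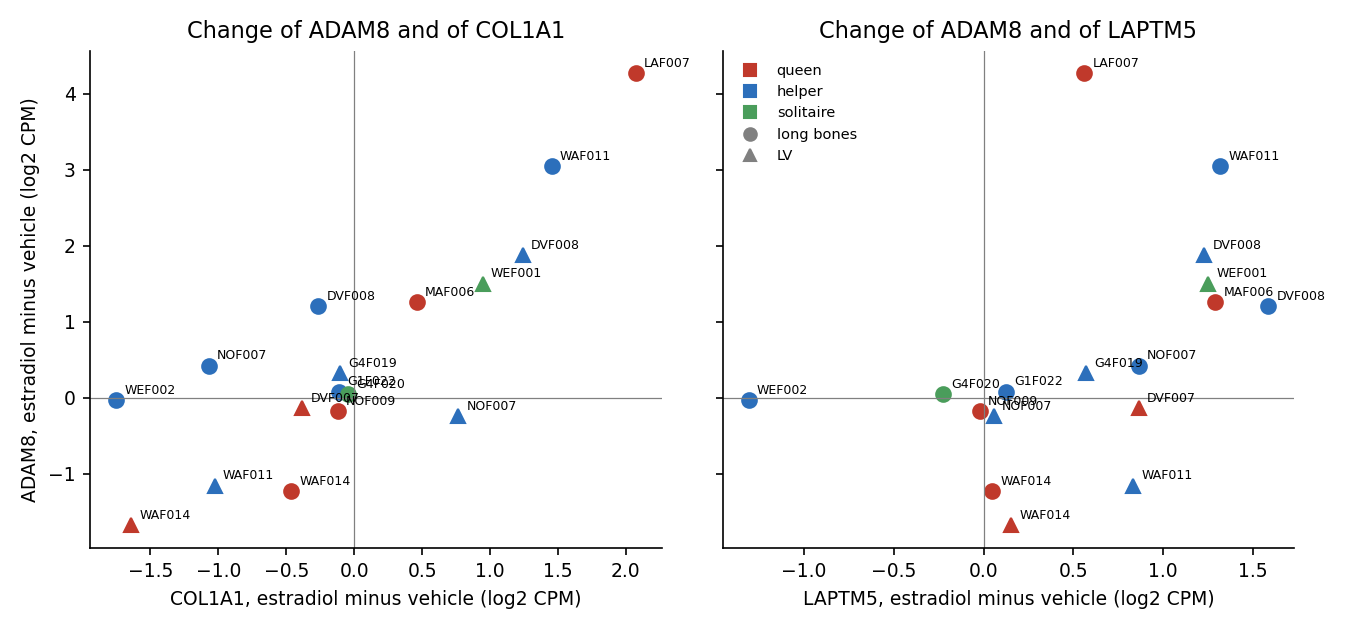
Change of ADAM8 under estradiol (vertical axis, log2 CPM, estradiol minus vehicle) against the change of COL1A1 and of LAPTM5 in the same pair of cultures, with circles for long bones and triangles for LV. Colours give status, and LAF007 lies at the upper right and WAF014 at the lower left of the COL1A1 panel.

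Set against LAPTM5, also after the values were seen and with no test, the changes of ADAM8 had r = 0.50 and rho = 0.73 in long bones (n = 10), and r was 0.58 without the 2 farthest animals. In the LV r was 0.72 and rho 0.71 (n = 7), and r was 0.70 without the 2 farthest. Signs agreed in 8 of 10 animals in long bones and in 3 of 7 in the LV. In the cultures of WAF014, LAPTM5 was nearly level, at 239 CPM under vehicle and 248 under estradiol in long bones and 147 and 163 in the LV, while ADAM8 was lower under estradiol in both.

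Long bones and LV, the skeletal sites whose growth and turnover the study contrasted, showed no difference in ADAM8 that passed the test. Cells from the LV were released with Collagenase P and those from the long bones were not, so bone type and isolation cannot be told apart, for ADAM8 or for the markers below. Over 13 animals with a vehicle culture from both, the fitted log2 difference between LV and long bones was -0.06 (SE 0.34, 95% interval -0.78 to 0.66, edgeR adjusted p = 0.939), and 5 of 13 were higher in the LV. In this comparison 755 of 11047 genes (6.83%) passed an FDR of 10%, of which 308 (2.79%) were higher and 447 (4.05%) lower in the LV. The largest differences between the bone types of 1 animal were those of WAF011, with 0 counts in long bones and 15 in the LV, at least 4.71-fold higher at the floor of 3 counts, and of MAF003, with 19 and 2 counts, a ratio of 0.202 (95% exact counting interval 0.0228 to 0.836). In the 3 queens the levels of the bone types were close, at 28.8 against 22.7 CPM in WAF014, 2.59 against 2.61 in LAF007 and 0.571 against 0.431 in DVF007, each LV value first. In estradiol libraries the fitted difference was -0.94 (SE 0.36, edgeR unadjusted p = 0.0310, adjusted p = 0.474).

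Of the 15 myeloid markers tested, 3 were lower in the LV at an FDR of 10%, with a list median of -0.50 on the log2 scale beside -0.04 over all genes. They were LCP2, an adaptor of immune receptor signalling (-1.16, SE 0.26, edgeR adjusted p = 0.0125), LAPTM5 (-1.12, SE 0.28, adjusted p = 0.0247) and CORO1A, an actin-binding protein of leukocytes (-0.74, SE 0.21, adjusted p = 0.0515). Of the 3 lymphoid genes tested, SLAMF7 (-1.22) and GRAP2 (-1.25) fell, and of the 5 endothelial genes RHOJ (-0.49) fell. PHEX, an osteoblast and osteocyte peptidase (0.62), and FGFR1, a fibroblast growth factor receptor (0.98), rose among the 12 osteoblast and stroma genes, and ATP6V1D (0.26, edgeR adjusted p = 0.0957) rose among the 6 resorption genes. None of the 6 genes of the list with ADAM9, MMP2 and MMP11 and none of the 8 cell cycle genes passed, with medians of -0.16 and 0.07.

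Solitaires and helpers were compared to separate release from the natal colony from breeding. No difference in ADAM8 between them passed the test. The main fit held the queens too, with breeding status as a term. Solitaire MAF003 has only a queen as colony mate, so this fit drew in part on the contrast that singled the gene out. The fitted log2 difference between solitaires and helpers was 0.93 (SE 0.68, 95% interval -0.60 to 2.45, edgeR adjusted p = 0.663) in long bones and 0.47 (SE 0.81, 95% interval -1.39 to 2.34, adjusted p = 0.998) in the LV. Among nonbreeders alone it was 0.72 (SE 0.38, edgeR unadjusted p = 0.102, adjusted p = 0.982) in long bones and 0.51 (SE 0.52) in the LV. In the main fit of the long bones 1 of 11047 genes (0.00905%) passed an FDR of 10%, and 967 (8.75%) had an unadjusted p under 0.05, while in that of the LV 0 (0%) passed and 308 (2.79%) had an unadjusted p under 0.05. Mean CPM per animal ran from 1.67 to 8.96 in the long bones of the 4 solitaires and from 0.802 to 10.8 in those of the 7 helpers. In each of the 3 colonies with both, the solitaire stood higher than the helper in vehicle cultures of the long bones, at 8.82 against 4.49 CPM in G4, 5.06 against 4.23 in G1 and 1.67 against 0.857 between WEF001 and WEF002. The last pair held 14 and 5 counts. Vehicle cultures of the LV did not repeat this, with 8.19 against 7.05 CPM in G4 but 1.65 in WEF001 against 1.86 in WEF002. The helper of G1 has no LV library. In vehicle libraries alone the fitted difference was 1.01 (SE 0.85) in long bones and 0.05 (SE 0.55) in the LV. No gene of any list passed, and the list with ADAM9, MMP2 and MMP11 had a median of 0.50 in long bones, with 6 of 6 above zero, and of 0.23 in the LV, with 5 of 6 above zero. Medians of the osteoblast and stroma list were 0.71 and 0.21 and of the cell cycle list -0.54 and -0.53.

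**Figure D4:**
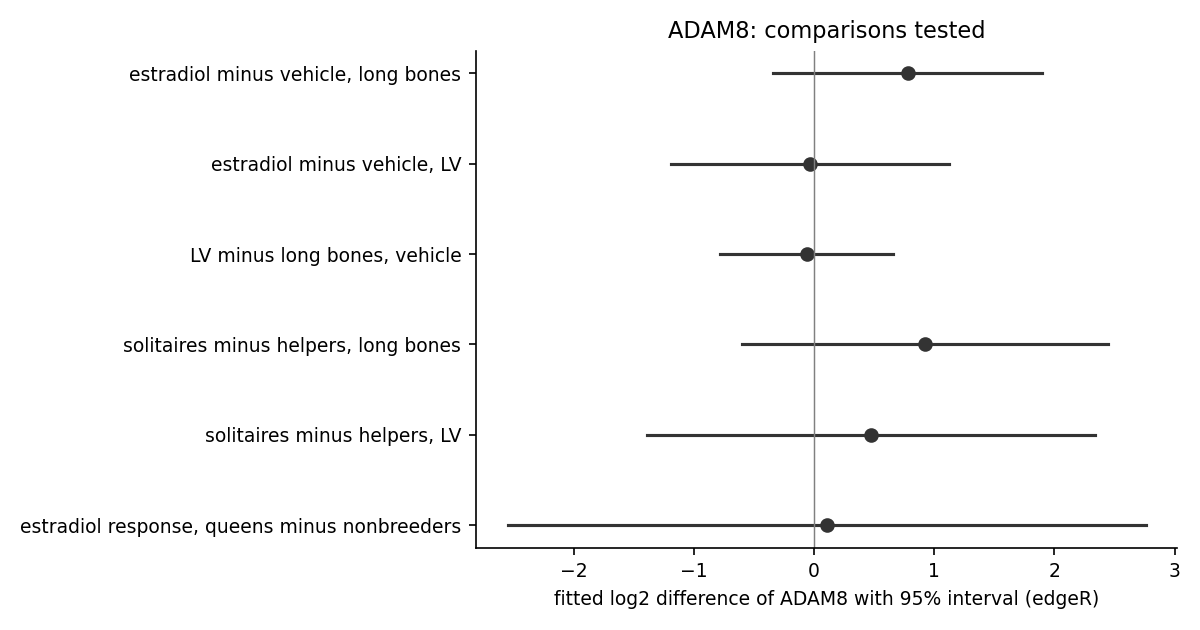
Fitted log2 differences of ADAM8 with 95% intervals from edgeR, for the 6 comparisons that were tested. Every interval includes zero, and that of the difference between the estradiol responses of queens and nonbreeders is the widest, from -2.55 to 2.76.

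The cultures of an animal were then set against each other. These points include queens, and ADAM8 was chosen for its difference between queens and nonbreeders. Values over all animals and over colony means are therefore a description with no test. Vehicle cultures of long bones and of LV followed one another over 13 animals, with r = 0.81 and rho = 0.79. Without the 2 animals farthest from the median, WAF014 and WAF011, r was 0.85. Among the 10 nonbreeders r was 0.70 (permutation p = 0.0268, adjusted p = 0.119). Vehicle and estradiol cultures of the long bones had r = 0.72 and rho = 0.73 (n = 10), and r was 0.58 without the 2 farthest. Among the 6 nonbreeders with both cultures r was 0.87 (exact permutation p = 0.0569, adjusted p = 0.152). In the LV the relation between treatments had r = 0.81 and rho = 0.75 (n = 7), and r was 0.85 without the 2 farthest. Means of the 8 natal colonies were chosen after the values were seen. Over them, r was 0.75 between bone types, and 0.49 without the 2 farthest. Between treatments of the long bones r was 0.68, and 0.47 without the 2 farthest. In vehicle cultures of the long bones, colony mates were close in DV, at 0.431 CPM in DVF007 and 0.405 in DVF008. They were far apart in WA, with 22.7 CPM in WAF014 and no count in WAF011. The parts of animal and of natal colony in these relations were not tested. Tests among nonbreeders took colony mates as independent, so their p-values may be too small. Adjusted values are over the 8 relations computed within nonbreeders.

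Age was set beside ADAM8 over the natal colonies. Animals of a colony were within days of the same age, so the 8 colony means are the points. These means include queens, and ADAM8 was chosen for its difference between queens and nonbreeders, so the values are a description with no test. Queens were between 1004 and 1132 days old and helpers between 1003 and 1232, so age and breeding status were partly mixed. With long bones, r was 0.18 and rho 0.13, and r was 0.38 without the 2 colonies farthest in age, that of G4F019 and that of WEF001.

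Levels of ADAM8 in the long bones were set beside those of 4 genes across the 16 animals. Because ADAM8 was chosen for its difference between queens and nonbreeders, which these points include, the values over all animals are a description with no test. With LAPTM5, r was 0.64 and rho 0.63, and r was 0.60 without the 2 farthest animals. With CTSK, r was 0.66 and rho 0.64, but r was 0.37 without NOF009 and WAF014, so that relation rests on those queens. COL1A1 had r = -0.26 and rho = -0.17, and r was -0.14 without the 2 farthest. ADAM9, a family member of wide expression, had r = -0.10 and rho = -0.16, and r was -0.36 without the 2 farthest. Over the 14 animals of the LV, r was 0.73 with LAPTM5, -0.06 with CTSK, 0.20 with COL1A1 and -0.22 with ADAM9. The relation with CTSK was thus not seen in the LV. Within the 11 nonbreeders of the long bones none passed an adjusted p of 0.05 by permutation tests. There r was 0.66 with LAPTM5 (permutation p = 0.0297, adjusted p = 0.119), 0.22 with CTSK (p = 0.524, adjusted p = 0.524), -0.23 with COL1A1 (p = 0.503, adjusted p = 0.524) and -0.44 with ADAM9 (p = 0.177, adjusted p = 0.236). Without the 2 nonbreeders farthest on each gene, r was 0.53, 0.42, 0.15 and -0.80 in the same order.

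**Figure D5:**
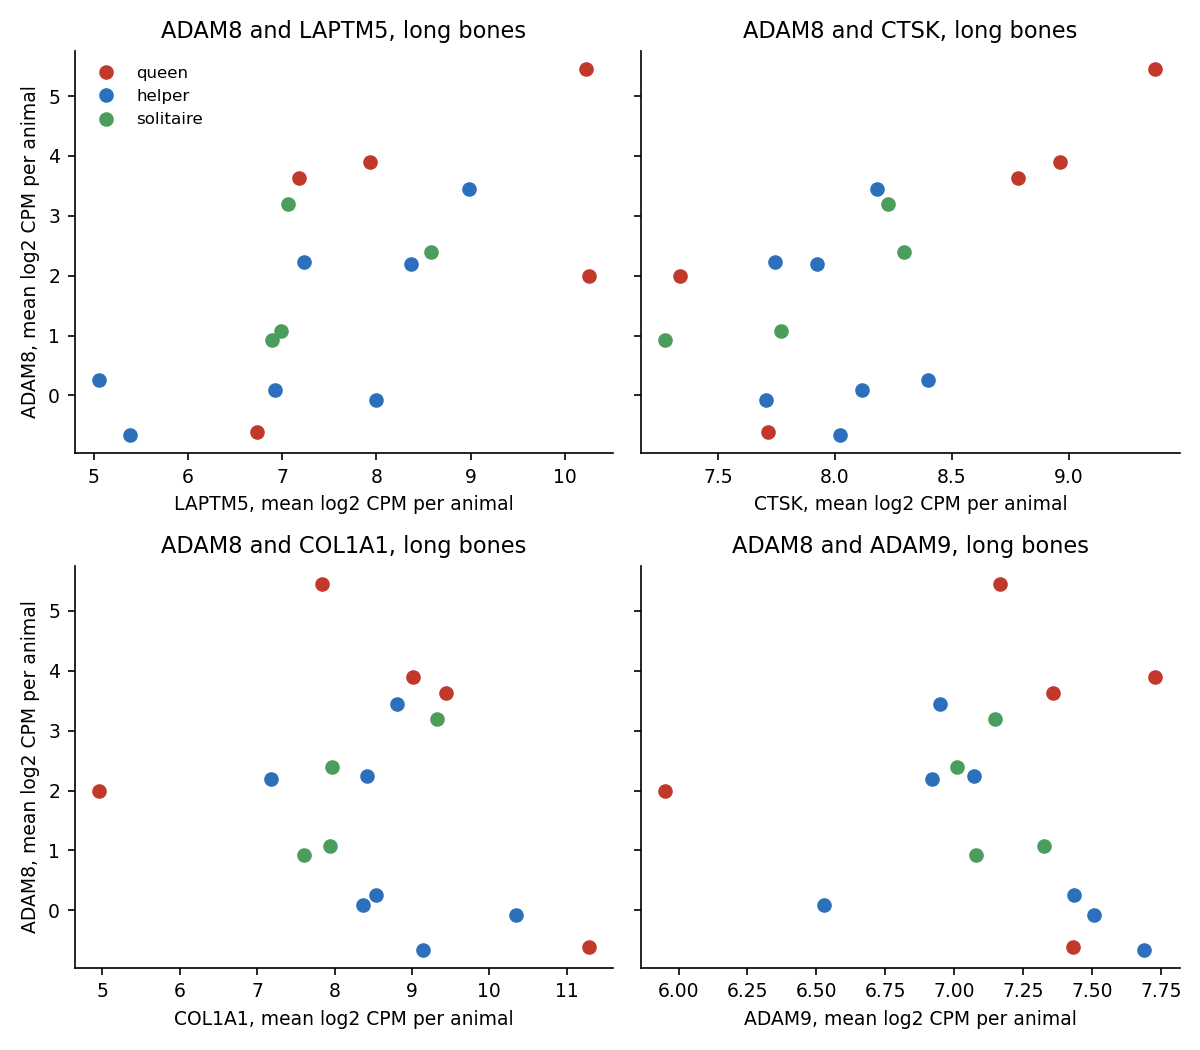
Mean log2 CPM of ADAM8 per animal (vertical axes) against that of LAPTM5, CTSK, COL1A1 and ADAM9 in the long bones of 16 animals, coloured by status. The points rise with LAPTM5 (r = 0.64) and CTSK (r = 0.66), the latter through 2 queens, and scatter widely with COL1A1 (r = -0.26) and ADAM9 (r = -0.10).

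High myeloid markers did not always go with high ADAM8. MAF006, a queen, had the highest LAPTM5 of all libraries, 1911 CPM in the estradiol culture of the long bones, beside 5.95 CPM of ADAM8. NOF009 had 1200 CPM of LAPTM5 and 46.3 CPM of ADAM8 under vehicle. LAF007 reached the highest ADAM8 of the series, 54.4 CPM, in a culture with 176 CPM of LAPTM5 and a summed myeloid level of 341 CPM, and WAF014 had 28.8 CPM of ADAM8 in the LV beside 147 CPM of LAPTM5. Helper G1F022 had 346 CPM of LAPTM5 and 4.48 CPM of ADAM8 under estradiol. Over the 15 myeloid markers, the correlation with ADAM8 across the 16 animals was above zero for 15 of 15, with a median r of 0.64 and a range of 0.24 to 0.77. Over the 12 osteoblast and stroma genes the median was -0.12, with 2 of 12 above zero, and over all 11046 other genes it was -0.07, with 4542 above zero. These points include queens, in which ADAM8 and 15 of 15 myeloid markers were higher, so a shared direction is partly built in. The values are a description with no test.

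The genes most like ADAM8 in the long bones were found by Pearson's r of mean log2 CPM over the 16 animals, as a description over points that share libraries and depth. The highest were ENSFDAG00000012109 (r = 0.94, rho = 0.92) and ENSFDAG00000009864 (r = 0.93, rho = 0.87), which have no symbol in the list used here. Over the 14 animals of the LV, which the ranking did not use but which are the same individuals, they had r = 0.92 and 0.93, and among the 11 nonbreeders of the long bones 0.94 and 0.96. Only 1115 of the 11046 genes compared have a symbol here. Of these the first was HSD17B11, a lipid droplet dehydrogenase of the steroid-converting family (r = 0.85 in the long bones, 0.33 in the LV). It ranked 20 among all genes compared, and the named genes that follow ranked from 44 to 77. SHTN1, shootin 1, a cytoskeletal protein known from neurons, had r = 0.81 and 0.76, and ARL11, a small GTPase, had 0.81 and 0.74. Cathepsin Z, CTSZ, a lysosomal carboxypeptidase, had 0.80 and 0.84. TNFAIP8L3, a phosphoinositide transfer protein, had 0.78 in long bones and -0.25 in the LV.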

How the data were processed

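The authors trimmed reads with cutadapt 2.3, aligned them with STAR to DMR_v1.0, kept uniquely mapped reads and counted them per Ensembl gene with HTSeq; the strand setting is not given in the sources used here, so overlapping or antisense reads may be included. The deposited counts are whole numbers.

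Groups were taken from the labels, and natal colony from the animal names. Symbols come from 1594 identifiers of the study's gene list, 1138 of which have a symbol used here. The filter kept 11047 genes that reached 2 CPM in 25% or more of libraries, and these were tested with edgeR 4.0.16 (quasi-likelihood, TMM) in R 4.3.3, two-sided, with Benjamini-Hochberg adjustment and an FDR of 10%. ADAM8 reached 2 CPM in 25 libraries, 11 from queens and 14 from nonbreeders, where 12 were needed. The 2 cultures of an animal are paired because they come from the same animal, so animal was the block for estradiol and bone type. Natal colony was the block for status, with counts summed per animal. Levels of single libraries were put on a log2 scale (prior count 2), and intervals of ratios between 2 libraries are exact binomial intervals on their counts at 95%. Correlations that were tested have exact permutation p-values under 10 points and 100000 resamples otherwise. DESeq2 1.42.0, limma 3.58.1 (voom), other normalization and filters, fits without the block, subsets of libraries, and leaving out each animal in turn were alternatives. The fitting code was tested on simulated data. ADAM8, the lists and the named genes were chosen with earlier results of these data known. Named genes are ADAM8, the comparison genes LAPTM5, CTSK, COL1A1 and ADAM9, up to 3 members of each list with the smallest p in a comparison, and the 5 genes with a symbol and 2 without that were most like ADAM8. Days in culture are not in the labels and were not modelled, and a filter on TPM was not used because gene lengths were not at hand.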

Additional observations from a re-analysis of the deposited data

How the results depend on the processing

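No tested difference of ADAM8 passed an FDR of 10% in its main fit or under any alternative run, so alternatives moved values and signs, not calls. The exact permutation tests within animals, and the relations on changes, over colony means and between treatments in the LV, were added after seeing the data. Estradiol in the LV, -0.03, changed sign in DESeq2's Wald test (0.011), in the voom model (0.048), within nonbreeders (0.42) and as the mean of the pairs (0.069). LV against long bones, -0.06, changed sign with no replicate block (0.072) and in the voom model (0.19). With no replicate block, estradiol in the long bones was 0.53 and in the LV -0.62, solitaires against helpers 0.44 and 0.23, and the pairing changed no call. Queens against nonbreeders in the LV moved from 2.58 to 0.93 with no replicate block and to 3.67 in vehicle libraries.

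Leaving out 1 animal at a time gave ranges of 0.38 to 1.07 for estradiol in the long bones, -0.34 to 0.34 in the LV, -0.24 to 0.079 for LV against long bones, 0.71 to 1.20 and 0.08 to 0.84 for solitaires against helpers, -0.85 to 1.00 for the interaction, and 1.90 to 2.99 and 1.42 to 3.67 for queens against nonbreeders in long bones and LV. Within nonbreeders, r was 0.87 between treatments, 0.70 between bone types, 0.66 with LAPTM5 and 0.22 with CTSK. None of these passed an adjusted p of 0.05 by permutation tests. Between the changes of ADAM8 and COL1A1 in long bones r was 0.79, given with no test. Over colony means, r was 0.75 between bone types and 0.68 between treatments. With vehicle libraries only, CTSK had r = 0.55 and ADAM9 0.011. Without TMM factors, ADAM9 had r = 0.037, and within nonbreeders -0.44. Genes called between bone types fell from 755 to 251 with no replicate block, 394 within nonbreeders, 335 in voom and 57 in estradiol libraries, and 563 to 1391 with 1 animal left out (without DVF007 and without WAF011). For estradiol in long bones and LV, DESeq2 called 5 and 6 genes and voom 3 and 3, where edgeR called 0, and 7 and 0 passed with no filter. For solitaires against helpers, DESeq2 called 139 and 6, voom 62 and 5, and edgeR with no filter 8 and 9. The low libraries hold few ADAM8 counts, which limits their folds.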
